A study of Mus musculus with 4 samples.

Results

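CACUL1 overexpression was set directly against CACUL1 knockdown in 3T3-L1 cells, mouse preadipocytes that fill with fat in culture when induced. Of the 4 samples of the series, 2 were compared, the FLAG-CACUL1 line and the sh-CACUL1 line, both taken by their labels and with 1 sample each. FLAG-CACUL1 stably expressed CACUL1 with a FLAG tag, and sh-CACUL1 stably expressed a short hairpin RNA against it. The FLAG line, which carried the empty FLAG vector, and the sh-Luc line, with a hairpin against luciferase, served as context. Every line was brought to confluence and treated with rosiglitazone, an agonist of PPARγ, at 5 μM, together with IBMX at 0.5 mM, dexamethasone at 1 μg/ml and insulin at 5 μg/ml. Insulin medium followed, and RNA was taken on day 8 of differentiation. The FLAG lines came from colonies resistant to G418 and the hairpin lines from colonies resistant to hygromycin B. Vector and drug therefore differed between the CACUL1 lines together with the CACUL1 manipulation, and these cannot be told apart from each other in the direct comparison. The species of the CACUL1 insert was not given in the sources used here.

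With 1 sample per line there is no replicate error and no test, and every difference below is between these libraries. FPKM, a fragment count divided by transcript length and library size, summed to 372148 in sh-CACUL1 and 473584 in FLAG-CACUL1, with the controls at 416081 and 471681. Steps in the low values put 1 fragment on a transcript of 2 kb at 0.0351 FPKM in FLAG-CACUL1 and at 0.0334 FPKM in sh-CACUL1, with lower values for 1 fragment on longer transcripts. Ratios are log2 of (FPKM + 1) in FLAG-CACUL1 over (FPKM + 1) in sh-CACUL1, a scale that understates the difference of low genes. The cut-off for a changed gene was a 2-fold difference in either direction.

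PPARγ is the nuclear receptor that drives fat cell formation. With its partner RXRα and with C/EBPα it switches on the genes for lipid uptake, triglyceride storage and adipokine secretion, while the preadipocyte's matrix and cytoskeleton programs are turned down. CACUL1, a cullin-domain protein first described as a partner of CDK2, has been studied as a corepressor of nuclear receptors, PPARγ among them, and SIRT1 and the histone demethylase LSD1 (gene Kdm1a) have been linked to the same receptor. The comparison of the lines at opposite ends of CACUL1 expression asks which genes lie furthest apart between them.

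Cacul1 itself was at 11.8 FPKM in FLAG-CACUL1, 5.39 FPKM in sh-CACUL1, 9.61 FPKM in FLAG and 10.2 in sh-Luc. The order of the lines followed the labels, with both controls between the manipulated lines. The difference was 2.19-fold in FPKM and 1.00 as a log2 ratio, on the edge of the cut-off. Most of it lay on the knockdown side, since FLAG-CACUL1 was close to both controls. After median-of-ratios scaling the Cacul1 log2 ratio was 0.73, below the cut-off, and 2954 of 13085 genes had a larger absolute log2 ratio than Cacul1. Reads from the insert are counted only as far as they match the mouse transcript.

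Of the 13085 genes, 2096 (16%) were at least 2-fold higher in FLAG-CACUL1 and 862 (6.59%) at least 2-fold lower. The median log2 ratio of all genes was 0.19, so FLAG-CACUL1 stood higher overall. Median-of-ratios scaling sets that median to 0 and gives 1456 genes higher (11.1%) and 1309 lower (10%), which moves the higher share of changed genes from 70.9% to 52.7%. The list medians below can be read against 0.19. Those between the controls, FLAG over sh-Luc, can be read against the median of all genes for that ratio, -0.18. Scaling divides each line by a constant and here lowers every ratio. By construction, the 1456 genes higher after it are among the 2096, and the 862 lower genes stay lower. Scaling can therefore only shrink the counts of higher genes and raise those of lower genes, in the lists below as well. Differences of at least 8-fold were seen for 155 genes higher and 70 lower in FLAG-CACUL1, and of at least 32-fold for 21 and 14 genes.

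**Figure D1:**
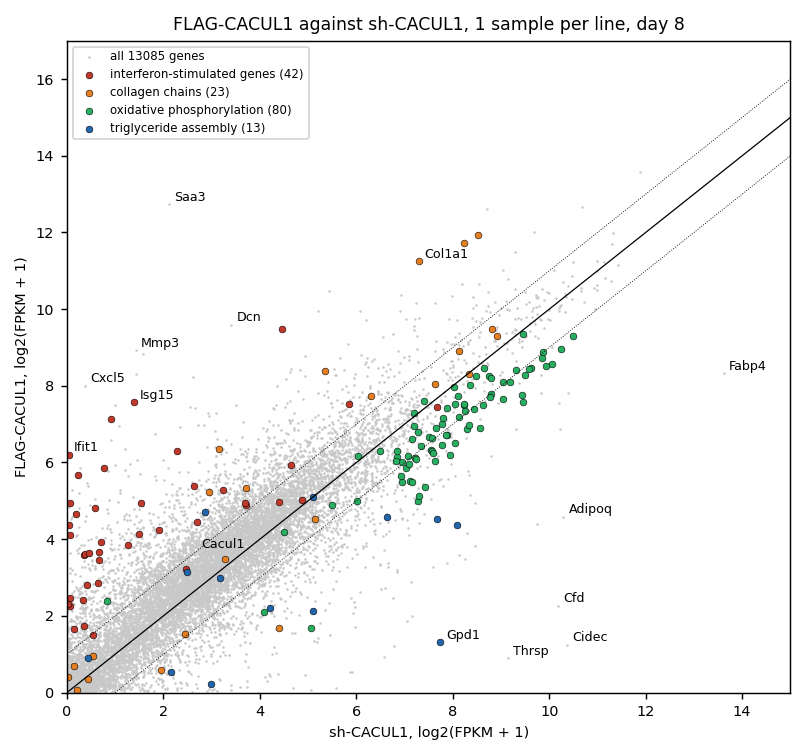
Expression of each of 13085 genes in sh-CACUL1 (horizontal axis) and FLAG-CACUL1 (vertical axis), both as log2(FPKM + 1), with 1 sample per line; the solid line marks equal values, the dotted lines 2-fold, and the colours members of 4 gene lists. Interferon-stimulated genes lie above the upper dotted line in 37 of 42 cases, and Cidec, Thrsp, Cfd and Gpd1 lie far below the lower dotted line.

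Among genes with at least 1 FPKM in both lines, Saa3, Mmp3, Ccl2, Cxcl1 and Dcn were among the 10 with the highest ratios. Saa3, an acute phase serum amyloid A protein, was at 6829 FPKM in FLAG-CACUL1 against 3.33 FPKM in sh-CACUL1, 1135 FPKM in FLAG and 1.32 in sh-Luc, a log2 ratio of 10.62. It was high in both G418-selected lines and low in both hairpin lines. Mmp3, the stromelysin-1 matrix protease, stood at 487, 1.68, 104 and 22.1 FPKM in FLAG-CACUL1, sh-CACUL1, FLAG and sh-Luc, so that both controls fell between the CACUL1 lines. Values in the same order were 451, 2.0, 87.3 and 51.1 FPKM for Ccl2, the monocyte chemoattractant, and 317, 1.71, 176 and 12.4 FPKM for the neutrophil chemokine Cxcl1. Dcn, the collagen-binding proteoglycan decorin, was at 770.0 FPKM in FLAG-CACUL1 and 9.6 FPKM in sh-CACUL1 with nearly equal controls, 99.7 and 106 FPKM.

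Under the same condition Cidec, Cfd, Ces1d, Ubd and Fam213a were among the 10 with the lowest ratios. Cidec, which enlarges lipid droplets by fusing them, was at 1.36 FPKM in FLAG-CACUL1, 1324 FPKM in sh-CACUL1, 123 FPKM in FLAG and 81.5 in sh-Luc, a log2 ratio of -9.13. Thrsp, a promoter of fatty acid synthesis, was at 0.859, 564, 32.8 and 7.52 FPKM in the same order. For both genes the controls lay between the CACUL1 lines and well away from either. Cfd, the secreted protease adipsin, was at 3.78 FPKM in FLAG-CACUL1 and 1159 FPKM in sh-CACUL1, but its controls were also far apart, 1070.1 FPKM in FLAG and 18.5 in sh-Luc. Ces1d, a lipid-droplet carboxylesterase, was at 2.62, 131, 3.37 and 7.4 FPKM, high in sh-CACUL1 alone. Ubd, the ubiquitin-like protein FAT10, had 3.01 in FLAG-CACUL1 and 142 FPKM in sh-CACUL1, with 11.3 and 5.6 FPKM in the controls, and Fam213a had 10.2, 303, 121 and 11.3 FPKM.

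Some genes were all but undetected in a single CACUL1 line. There were 12 genes under 0.1 FPKM in FLAG-CACUL1 and at 5 FPKM or more in sh-CACUL1, and 16 the other way round. No deposited value was exactly 0, so genes without any fragment in a line may have no row and be missing from these counts. Mrap, an accessory protein of the melanocortin receptor that adipocytes make, was at 0.0825, 47, 29.7 and 0.775 FPKM in FLAG-CACUL1, sh-CACUL1, FLAG and sh-Luc. Insl3 and Fam107a were at 14.5 and 32.3 FPKM in sh-CACUL1 and under 0.1 FPKM in FLAG-CACUL1, although 63.1% of the 31-base words of the Insl3 transcript also occur in another gene. In the opposite direction Mamdc2 was at 38 FPKM in FLAG-CACUL1 and 0.0803 FPKM in sh-CACUL1, with 4.32 and 4.66 FPKM in the controls. Zbp1, a sensor of Z-form nucleic acids, was at 23 and 0.070 FPKM in the CACUL1 lines and at 17.7 and 1.52 FPKM in FLAG and sh-Luc. Eif3j1 and Eif3j2 also met this criterion in opposite directions, but 94.0% of the 31-base words of the Eif3j2 transcript occur in Eif3j1, so the assignment of reads between them is uncertain.

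Mature adipocyte markers were lower in FLAG-CACUL1. All 8 were measured and 7 were at least 2-fold lower, with a median log2 ratio of -4.0 and none higher. Their summed level was 887 FPKM in FLAG-CACUL1, 16549 FPKM in sh-CACUL1, 7434 FPKM in FLAG and 1703 in sh-Luc, so sh-CACUL1 had the highest sum and FLAG-CACUL1 the lowest. Fabp4, the fatty acid carrier of adipocytes, made up most of it in sh-CACUL1, with 320.4, 12543, 4991 and 1020.1 FPKM. The insulin-sensitizing hormone adiponectin (Adipoq) was at 23 FPKM in FLAG-CACUL1, 1252 FPKM in sh-CACUL1, 837 FPKM in FLAG and 171 in sh-Luc. Plin1, the perilipin that coats adipocyte lipid droplets, was at 7.91, 113, 158 and 24.3 FPKM in that order. In these bulk samples a smaller number of cells of a type and less RNA per cell cannot be told apart.

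Fibroblast and preadipocyte markers went the other way, with 7 of 9 at least 2-fold higher in FLAG-CACUL1 and a median log2 ratio of 3.41. Their sum was 7775 FPKM in FLAG-CACUL1, 643 FPKM in sh-CACUL1, 4965 FPKM in FLAG and 3259 in sh-Luc. Both exceptions were receptors or ligands of the preadipocyte surface, Pdgfra with 40.9 and 24.2 FPKM and Dlk1 with 39.4 and 21.2 FPKM in FLAG-CACUL1 and sh-CACUL1. Of 10 macrophage markers 5 were measured, summing to 111 FPKM in FLAG-CACUL1 and 6.95 FPKM in sh-CACUL1. That sum came almost wholly from Lyz2, with 66.5 and 1.72 FPKM, and Cd14, with 42.2 and 3.5 FPKM, whereas Csf1r, the macrophage growth factor receptor, was at 0.397 and 0.0172 FPKM. Only 2 of 7 endothelial, 1 of 5 epithelial and 0 of 7 skeletal muscle markers were measured. Of 10 brown or beige adipocyte markers 3 were measured, with Cox8b at 2.22, 32.6, 22.5 and 2.23 FPKM.

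Adipogenic transcription factors were changed in 7 of 17 cases, all lower in FLAG-CACUL1, with a median log2 ratio of -0.69. Pparg was at 12.3 FPKM in FLAG-CACUL1, 61.8 FPKM in sh-CACUL1, 70.1 FPKM in FLAG and 14.8 in sh-Luc. It was thus high in FLAG and sh-CACUL1 and low in the remaining lines. Nr1h3, the oxysterol receptor LXRα, had the largest difference of the list at 4.04 against 42.2 FPKM, a log2 ratio of -3.10, with 14.5 and 1.03 FPKM in the controls. Srebf1, the master factor of lipogenesis, was at 12.2 FPKM in FLAG-CACUL1 and 46.9 FPKM in sh-CACUL1, Stat5a at 9.5 and 30.4 FPKM, Klf15 at 0.19 and 3.71 FPKM, Klf5 at 0.432 and 2.62 FPKM, and Ppargc1b at 0.653 and 2.67 FPKM. Cebpa was low throughout, 1.58, 2.97, 9.16 and 0.421 FPKM, and its log2 ratio of -0.62 missed the cut-off. Rxra, at 42.5 FPKM in FLAG-CACUL1 and 79.8 FPKM in sh-CACUL1, had a log2 ratio of -0.90, which passed 2-fold only after scaling (-1.19). The early factors Cebpb and Cebpd had log2 ratios of 0.50 and 0.82.

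A list of genes taken as inhibitors of adipogenesis, with Wnt pathway genes among them, was changed in 6 of 16 cases. In FLAG-CACUL1 5 were higher and 1 (6.25%) was lower, against 16% and 6.59% of all genes. Whether each member restrains adipogenesis in these lines was not tested. Sfrp2, a secreted Wnt modulator, was at 14.7, 0.347, 1.49 and 2.33 FPKM in FLAG-CACUL1, sh-CACUL1, FLAG and sh-Luc, with both controls between the CACUL1 lines. Ddit3, the C/EBP antagonist CHOP, was at 447, 67, 820.5 and 216 FPKM and was lowest in sh-CACUL1. Sox9 at 16.3 and 3.15 FPKM, Nr2f2 (COUP-TFII) at 15.9 and 3.92 FPKM and Klf3 at 11.5 and 3.0 FPKM were the other higher members. Tcf7l2, an effector of Wnt signalling, was the lower member at 6.84 against 16 FPKM.

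For PPARγ coregulators the shares past 2-fold were below those of all genes. Of 21 such genes 2 (9.52%) were higher, against 16% of all genes, Cacul1 itself and the coactivator Ncoa3 at 6.37 against 2.61 FPKM, and 1 (4.76%) was lower, against 6.59% of all, Nrip1 (RIP140) at 2.44 against 9.9 FPKM. After scaling no coregulator stayed 2-fold higher, and the list median of 0.04 changed sign between scalings. Sirt1 was at 2.24 FPKM in FLAG-CACUL1, 1.35 FPKM in sh-CACUL1, 0.602 FPKM in FLAG and 2.69 in sh-Luc, a log2 ratio of 0.46, and the CACUL1 lines lay between the controls. Kdm1a was at 17.1, 13.1, 19.4 and 18.9 FPKM, with a log2 ratio of 0.35, or 0.07 after scaling. Ep300 and Rcor1, an acetyltransferase and the CoREST scaffold of LSD1, had log2 ratios of 0.80 and 0.94. Cdk2 was at 10.9 FPKM in FLAG-CACUL1 and 12.5 FPKM in sh-CACUL1.

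**Figure D2:**
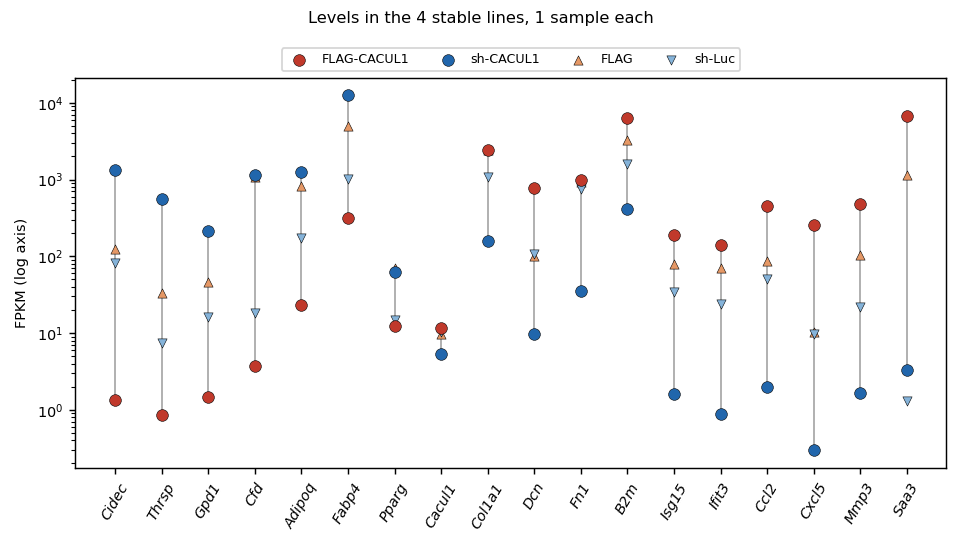
FPKM on a log axis of 18 genes in FLAG-CACUL1, sh-CACUL1 and the FLAG and sh-Luc controls, with 1 sample per line and no error bars; the grey bar joins the CACUL1 lines. The adipocyte genes at the left are highest in sh-CACUL1, apart from Pparg, for which FLAG was higher, and the matrix, interferon and chemokine genes at the right are highest in FLAG-CACUL1.

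The storage machinery was lower in FLAG-CACUL1 in most of its branches. Triglyceride assembly had 8 of 13 members lower and 1 higher, with a median log2 ratio of -2.02, the lowest median of the 35 lists other than cell type markers. Gpd1, which makes the glycerol backbone, was at 1.49, 213, 46.9 and 16.3 FPKM in FLAG-CACUL1, sh-CACUL1, FLAG and sh-Luc. The acyltransferases Agpat2 and Dgat1 stood at 19.6 and 22.1 FPKM in FLAG-CACUL1 and at 271 and 202 FPKM in sh-CACUL1. Lpin1, the phosphatidate phosphatase, was at 3.4 against 33.1 FPKM. The exception was Dgat2, which catalyses the same last step as Dgat1 and was higher in FLAG-CACUL1, at 25.1 against 6.24 FPKM, while its controls were at 261 and 2.86 FPKM.

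Lipid droplet and lipolysis genes were 8 lower and 4 higher among 18, with a median of -0.78, and 9 lower and 2 higher after scaling. Besides Cidec, the lower members included both main triglyceride lipases. Pnpla2 (ATGL), which cleaves the first fatty acid, was at 13.1 FPKM in FLAG-CACUL1 and 352 FPKM in sh-CACUL1, with 48.4 and 56.5 FPKM in the controls. Lipe, hormone-sensitive lipase, was at 8.6, 192, 103 and 33.6 FPKM. G0s2, an inhibitor of ATGL, was at 3.24 FPKM in FLAG-CACUL1 and 60.4 FPKM in sh-CACUL1 and higher still in FLAG, 133 FPKM. Pde3b, the phosphodiesterase through which insulin restrains lipolysis, was higher in FLAG-CACUL1, 6.54 against 0.0746 FPKM. Its controls were at 12.7 FPKM in FLAG and 1.1 in sh-Luc.

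Fatty acid synthesis genes were lower in 10 of 22 cases and higher in 1, with a median of -0.75. Scd1, the stearoyl-CoA desaturase, was at 19.9 FPKM in FLAG-CACUL1 and 857 FPKM in sh-CACUL1, but the controls spanned 36.3 FPKM in sh-Luc to 1914 in FLAG. Fasn, the fatty acid synthase, was at 20.4, 89.5, 16.8 and 36.9 FPKM, highest in sh-CACUL1. Hacd2, a dehydratase of chain elongation, was at 18.5 against 133 FPKM. The higher member was the desaturase-family gene Fads3, 49.7 against 18.6 FPKM, with 156 FPKM in FLAG and 55.1 in sh-Luc.

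For fatty acid uptake and activation 9 of 15 members were lower and 1 higher, with a median of -1.05. Acsl1, which activates fatty acids to acyl-CoA, was at 10.9, 278, 77.6 and 15 FPKM, and the scavenger receptor Cd36 at 34.4, 326, 121 and 59.5 FPKM. Both were highest in sh-CACUL1. The transport protein Slc27a1 was at 5.16 FPKM in FLAG-CACUL1 and 66 FPKM in sh-CACUL1 with equal controls, 16.7 and 16.5 FPKM. Lpl, the lipase that frees fatty acids from lipoproteins, was close to the cut-off at 512 against 1060.3 FPKM, a log2 ratio of -1.05, and the controls lay outside the CACUL1 lines at 1143 and 357 FPKM. The VLDL receptor Vldlr was the higher member, 8.05 against 0.822 FPKM, but its controls were further apart, 28.1 FPKM in FLAG and 2.46 in sh-Luc.

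Adipokines did not move as a group, with 8 of 20 higher and 8 lower in FLAG-CACUL1. The lower members included Cfd, Adipoq, resistin (Retn) at 1.34 against 109 FPKM and the lipocalin-family protein Orm1 at 4.57 against 57.9 FPKM. The adiponectin receptor Adipor2, also on the list, was lower at 25.1 against 70.6 FPKM. The higher members included the inflammatory Saa3 and Ccl2 and the iron-siderophore binder Lcn2 at 1424 FPKM in FLAG-CACUL1, 42.3 FPKM in sh-CACUL1, 1581 FPKM in FLAG and 5.71 in sh-Luc. Lcn2 was thus as high in the FLAG control as in FLAG-CACUL1. Apln, the peptide apelin, was at 28.2 FPKM in FLAG-CACUL1 and 1.99 FPKM in sh-CACUL1, with FLAG again highest at 61.9 FPKM.

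Many respiratory chain genes were lower in FLAG-CACUL1. Of 80 oxidative phosphorylation genes 76 had a ratio below 0, 42 were at least 2-fold lower and 1 was higher, with a median log2 ratio of -1.04; 58 were lower after scaling. The median of the same list between the controls, FLAG over sh-Luc, was 0.20, and both controls lay between the CACUL1 lines for 39 of the 80. The lower genes were spread over the complexes, with 15 of 37 genes lower in complex I, 3 of 4 in complex II, 9 of 10 in complex III with cytochrome c, 9 of 14 in complex IV and 6 of 15 in complex V. Cycs, cytochrome c, was at 30.7 FPKM in FLAG-CACUL1 and 154 FPKM in sh-CACUL1, with the controls at 51.8 and 39.2 FPKM. The Rieske protein Uqcrfs1 was at 34.1 and 155 FPKM, and the complex I subunit Ndufa9 at 40.1 and 172 FPKM. The higher gene was Cox6a2, a muscle-type subunit of complex IV, at 4.21 against 0.778 FPKM, with 11.3 FPKM in FLAG and 1.79 in sh-Luc.

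The pathways that feed the respiratory chain showed the same direction. In the TCA cycle and pyruvate entry list 18 of 28 genes were lower and 1 higher, with a median of -1.08. Pcx, pyruvate carboxylase, was at 29.8, 349.5, 216 and 84.3 FPKM in FLAG-CACUL1, sh-CACUL1, FLAG and sh-Luc. The pyruvate carrier subunit Mpc1 and the dehydrogenase subunits Pdhb and Idh3a had log2 ratios of -2.50, -2.40 and -2.20, and both controls were between the CACUL1 lines for each. Pdk1, the kinase that shuts pyruvate dehydrogenase off, was the higher member, 23.5 against 8.59 FPKM, with FLAG at 56.6 FPKM.

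Among 25 β-oxidation genes 14 were lower and 1 higher, with a median of -1.15. Acadm, the medium-chain acyl-CoA dehydrogenase, was at 16.9 FPKM in FLAG-CACUL1, 313 FPKM in sh-CACUL1, 55.5 FPKM in FLAG and 81.1 in sh-Luc. The very-long-chain and short-chain enzymes Acadvl and Acads had log2 ratios of -2.26 and -1.79. Hadhb, a subunit of the trifunctional protein, was at 24.1 against 143 FPKM, although a processed pseudogene shares 64.7% of its 31-base words. Cpt1a, the liver-type carnitine palmitoyltransferase, was the higher gene at 22.8 against 6.69 FPKM, and its controls were about as far apart, 6.02 FPKM in FLAG and 21.7 in sh-Luc.

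Branched-chain amino acid catabolism, a source of acetyl-CoA in adipocytes, had 10 of 21 genes lower and 1 higher, with 16 lower after scaling. Aldh6a1, of the valine pathway, was at 8.22 FPKM in FLAG-CACUL1 and 113 FPKM in sh-CACUL1, with 31 and 30.2 FPKM in the controls. The transaminases went in opposite directions. The mitochondrial Bcat2 was at 26.4 against 152 FPKM, whereas the cytosolic Bcat1 was at 4.45 against 0.381 FPKM, with 3.07 and 3.75 FPKM in the controls.

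Cholesterol synthesis and LDL uptake genes were lower in 14 of 25 cases with none higher, and 16 were lower after scaling. Pmvk, phosphomevalonate kinase, was at 5.19, 37.6, 19.4 and 19 FPKM in FLAG-CACUL1, sh-CACUL1, FLAG and sh-Luc. The sterol sensor Insig1 was at 21.7 against 131 FPKM and the sterol oxidase Msmo1 at 29.9 against 148 FPKM. Both controls lay between the CACUL1 lines for all 3 genes. Acat2, the cytosolic thiolase of the pathway, had a log2 ratio of -2.30, but shares 50.5% of its 31-base words with Acat3.

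Glycolysis ran against the mitochondrial genes, with 10 of 20 members higher in FLAG-CACUL1 and none lower, and a median of 0.99. After scaling 8 were higher, with a median of 0.68. Hk1, hexokinase, was at 76.4 FPKM in FLAG-CACUL1 and 8.84 FPKM in sh-CACUL1, and the ubiquitous glucose transporter Slc2a1 at 68.2 and 14.5 FPKM. The difference between the control lines was larger. FLAG had a median glycolysis log2 ratio over sh-Luc of 1.97, and Slc2a1 reached 1063 FPKM in FLAG against 60.4 FPKM in sh-Luc. Hypoxia targets of HIF1 were 14 of 25 higher and 1 lower, with a median of 1.35 beside 2.81 between the controls. Adm, the vasodilator peptide adrenomedullin, was at 15.5, 0.525, 196 and 13.1 FPKM, and Vegfa, the angiogenic factor, at 51.5, 117, 266 and 27.8 FPKM. Both controls lay between the CACUL1 lines for 0 glycolysis genes and 1 hypoxia gene.

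Insulin signalling genes were split, 7 higher and 7 lower of 26 (26.9% each), against 16% and 6.59% of all genes. Akt1, a kinase of the pathway, was at 198 against 57.4 FPKM. The IGF-binding proteins Igfbp4 and Igfbp5 were at 181 and 21.8 FPKM in FLAG-CACUL1 and at 19.1 and 0.056 FPKM in sh-CACUL1, and Igfbp4 was higher still in FLAG, 480.0 FPKM.

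**Figure D3:**
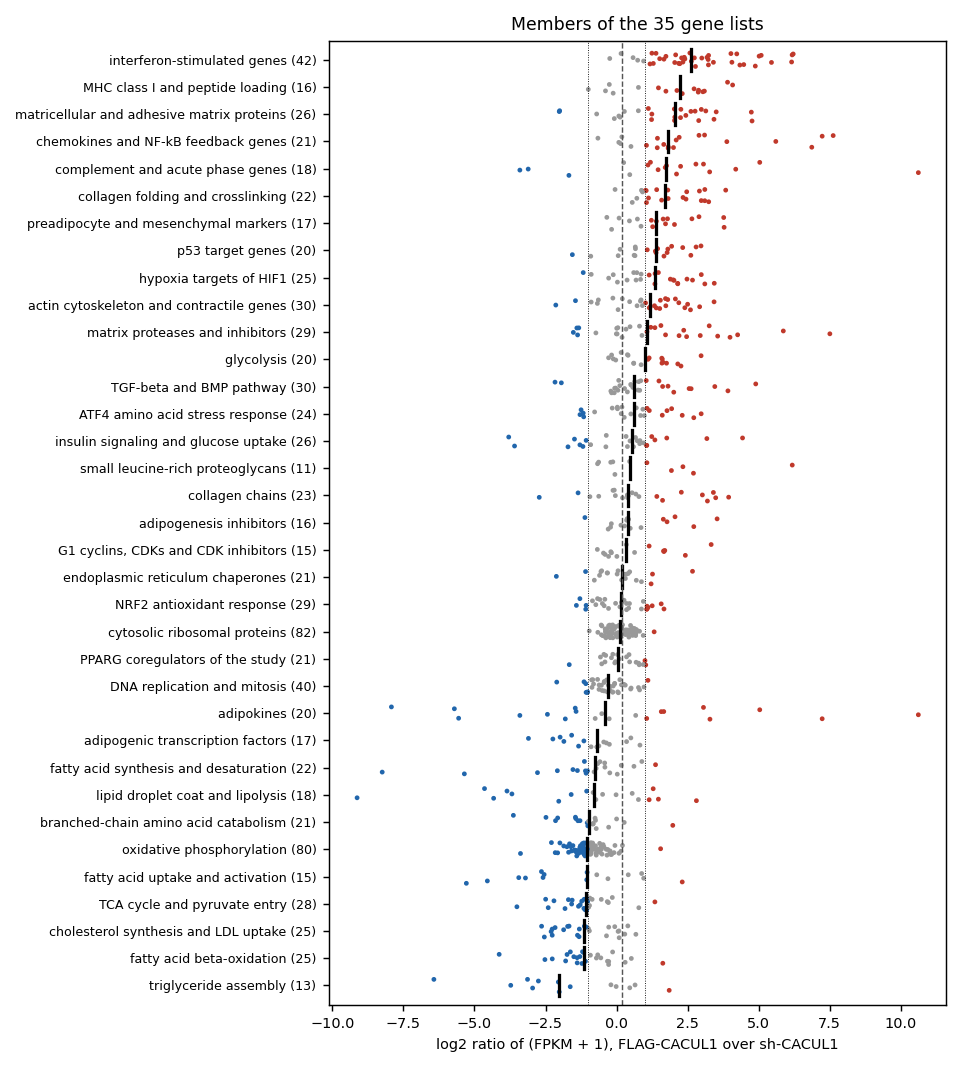
Each point is a gene of 1 of 35 lists, placed by its log2 ratio of (FPKM + 1) in FLAG-CACUL1 over sh-CACUL1, with red for at least 2-fold higher and blue for at least 2-fold lower; black ticks are list medians, the dashed line is the median of all genes (0.19) and the dotted lines mark 2-fold. Interferon-stimulated genes have the highest median, 2.61, and triglyceride assembly the lowest, -2.02.

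The extracellular matrix was richer in FLAG-CACUL1. Of 26 matricellular and adhesive proteins 18 were higher and 2 lower, with a median log2 ratio of 2.05, while the controls differed in the opposite direction (-0.52). Fn1, fibronectin, was at 986 FPKM in FLAG-CACUL1, 35.8 FPKM in sh-CACUL1, 928 FPKM in FLAG and 745 in sh-Luc. The knockdown stood apart from all other lines in this gene. Spp1, the secreted phosphoprotein osteopontin, was at 171, 5.29, 148 and 51.2 FPKM, and Fbln2, a basement membrane fibulin, at 841 against 73 FPKM. Ccn1, an immediate-early adhesive protein, was lower in FLAG-CACUL1 at 3.87 against 18.7 FPKM, with both controls above both lines (59.6 and 94.5 FPKM).

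Collagen chains were higher in 8 of 23 cases (34.8%) and lower in 2 (8.7%), against 16% and 6.59% of all genes, with a median of 0.42. Col1a1 was at 2424, 156, 2412 and 1095 FPKM in FLAG-CACUL1, sh-CACUL1, FLAG and sh-Luc, Col1a2 at 3397, 301, 1524 and 1396 FPKM, and Col3a1 at 3885, 365, 2157 and 1879 FPKM. In each the knockdown was several-fold below every other line. Col18a1, a basement membrane collagen, was at 80.7 against 7.89 FPKM, and the cartilage-type chain Col11a2 was lower at 2.2 against 20.1 FPKM. For Col18a1 the controls were about as far apart, 113 FPKM in FLAG and 11.2 in sh-Luc. The summed collagen level was 12846 FPKM in FLAG-CACUL1, 2765 FPKM in sh-CACUL1, 11202 FPKM in FLAG and 8844 in sh-Luc.

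The enzymes that fold and crosslink collagen were higher in 17 of 22 cases with none lower, with a median of 1.70. After scaling 13 were higher. Lox, lysyl oxidase, was at 435, 29.4, 442 and 302 FPKM, again with the knockdown apart. The prolyl hydroxylase subunits P4ha1 and P4ha2 had log2 ratios of 2.98 and 3.11, the lysyl hydroxylase Plod2 3.10 and the oxidase Loxl4 3.24. In the same order the log2 ratios of FLAG over sh-Luc were 1.27, 2.61, 4.17 and -0.38, so the controls were further apart for Plod2. Small leucine-rich proteoglycans, which bind collagen fibrils, were higher in 5 of 11 cases and lower in none. Besides Dcn they included biglycan (Bgn), at 4156 against 822 FPKM, and lumican (Lum), at 12.5 against 1.07 FPKM. Osteoglycin (Ogn) was at 24.8 and 5.77 FPKM in the CACUL1 lines but at 1.23 FPKM in FLAG and 264 in sh-Luc, a far wider gap between the controls.

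Matrix proteases and their inhibitors were higher in 15 of 29 cases and lower in 4, or 13 and 4 after scaling. Mmp13, a collagenase, was at 123 FPKM in FLAG-CACUL1, 1.12 FPKM in sh-CACUL1, 7.96 FPKM in FLAG and 1.4 in sh-Luc. Timp1, which inhibits these proteases, was higher with them, at 180.3 against 10.4 FPKM. Mmp11 was at 147 and 6.71 FPKM, below the 501 FPKM of the FLAG control. Adamts15 was the member furthest in the lower direction, 0.963 against 4.63 FPKM.

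Actin and contractile genes were higher in 17 of 30 cases and lower in 2, with a median of 1.17, beside -0.55 between the controls. After scaling 14 were higher and 3 lower. Acta2, smooth muscle actin, was at 23.5, 1.27, 2.9 and 33.1 FPKM in FLAG-CACUL1, sh-CACUL1, FLAG and sh-Luc, so FLAG-CACUL1 lay near sh-Luc and sh-CACUL1 near FLAG. Tagln2 and the tropomyosin Tpm1 were at 172 and 137 FPKM in FLAG-CACUL1 and at 21.8 and 23.5 FPKM in sh-CACUL1. Non-muscle myosin Myh10 was lower, 6.43 against 31.7 FPKM. Preadipocyte and mesenchymal markers were higher in 11 of 17 cases and lower in none, Ly6a (Sca-1) at 347 against 24.2 FPKM and the growth factor receptor Pdgfrb at 113 against 7.33 FPKM. The controls stood between the CACUL1 lines for both.

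In the TGF-β and BMP pathway 10 of 30 genes (33.3%) were higher and 2 (6.67%) lower, against 16% and 6.59% of all genes. After scaling 9 were higher and 2 lower. The ligand Tgfb1 was at 44.6, 6.38, 58.7 and 20.7 FPKM, lowest in sh-CACUL1. Gdf11, another ligand of the family, was at 18.5 against 0.775 FPKM. The TGF-β-induced matrix protein Tgfbi was at 105 FPKM in FLAG-CACUL1 and 2.56 FPKM in sh-CACUL1. Id2, a target of BMP signalling, was lower at 1.96 against 12.3 FPKM, but the hairpin lines shared the higher level (11.6 FPKM in sh-Luc and 1.7 in FLAG).

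Interferon-stimulated genes, which cells switch on to restrict viruses, had the highest median of these 35 lists. Of 42 genes 37 were at least 2-fold higher in FLAG-CACUL1 and none lower, with a median log2 ratio of 2.61, and 34 were higher after scaling. Both controls lay between the CACUL1 lines for 30 of the 42, and the median of FLAG over sh-Luc was 0.71. Isg15, a ubiquitin-like modifier, was at 189 FPKM in FLAG-CACUL1, 1.62 FPKM in sh-CACUL1, 79.8 FPKM in FLAG and 34.4 in sh-Luc. Ifit3 was at 139, 0.878, 70.9 and 23.8 FPKM and Ifit1, which binds foreign 5′ ends of RNA, at 72.5, 0.0258, 29.6 and 17.5 FPKM. The order FLAG-CACUL1, FLAG, sh-Luc, sh-CACUL1 was the same in all 3 genes, and also in Oasl2 (50.3, 25.8, 9.84 and 0.172 FPKM in that order). The Ifit1 level in sh-CACUL1 was under that of 1 fragment on 2 kb, so its log2 ratio of 6.16 is set by the pseudocount and is no bound. Ifit3 shares 61.8% of its 31-base words with Ifit3b, which was at 57.1 and 0.703 FPKM in FLAG-CACUL1 and sh-CACUL1, and reads may have been divided between them. Rtp4 was at 29.9 FPKM in FLAG-CACUL1 and 0.0453 FPKM in sh-CACUL1. The tethering factor Bst2, named here after its values were seen, was at 711, 21, 437 and 173 FPKM.

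The promoters of these genes are shown because members moved together. The interferon-stimulated response element is the sequence through which interferons act on such promoters, and it was searched here as GAAA repeated after a gap of 2 bases of any kind, on both strands of the 250 bases before and 50 bases after each start in the RefSeq promoters of build GRCm38.p6. The motif was chosen after the values of the list were seen. It occurred in 19 of the 31 list members with a promoter in the table, and in 3.99% of the 27025 genes of the table. Members with the motif had a median log2 ratio of 3.00 (17 of 19 at least 2-fold higher), and those without it 2.43 (10 of 12). Of 61 genes at least 16-fold higher in FLAG-CACUL1, 46 had a promoter in the table and 16 of these held the motif. List members such as Isg15, Ifit1, Ifit3 and Bst2 were kept in that set, so it partly recounts the list. A C/EBP site, TTGC and AA around 2 bases, was in 23.9% of the set (11 of 46), against 10.1% of the genes measured. It was in 12.2% of all genes of the table, 6.45% of the interferon-stimulated genes and 13.3% of the lipid droplet and lipolysis genes. The 150 bases before the start of 4 list members with the GAAA motif are printed 5′ to 3′ on the gene's strand. This motif is in capitals on whichever strand it lies, and overlapping matches run together.
Isg15, chr4:156200819-156200968, minus strand: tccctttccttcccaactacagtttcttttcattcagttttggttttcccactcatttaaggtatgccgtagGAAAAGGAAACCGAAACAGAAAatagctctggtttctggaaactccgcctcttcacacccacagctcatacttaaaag
Ifit1, chr19:34640739-34640888, plus strand: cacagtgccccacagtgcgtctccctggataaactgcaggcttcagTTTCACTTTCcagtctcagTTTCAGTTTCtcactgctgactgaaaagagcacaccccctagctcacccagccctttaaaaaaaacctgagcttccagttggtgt
Ifit3, chr19:34583379-34583528, plus strand: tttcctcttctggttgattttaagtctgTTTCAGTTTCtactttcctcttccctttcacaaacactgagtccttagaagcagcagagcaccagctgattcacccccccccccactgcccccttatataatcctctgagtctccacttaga
Bst2, chr8:71537473-71537622, minus strand: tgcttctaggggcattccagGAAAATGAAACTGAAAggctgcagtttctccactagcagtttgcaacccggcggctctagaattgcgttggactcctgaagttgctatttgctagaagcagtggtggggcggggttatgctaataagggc
In Ifit1 and Ifit3 the capitals show the reverse complement of the motif. A match of letters is a description of the window and not of binding.

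MHC class I and peptide-loading genes were higher in 11 of 16 cases, with a median of 2.22, and the controls differed by 1.79 in the same direction. B2m, the light chain of class I molecules, was at 6284, 418, 3255 and 1601 FPKM in FLAG-CACUL1, sh-CACUL1, FLAG and sh-Luc. Psmb8, an immunoproteasome subunit, was at 21.1 and 0.302 FPKM in the CACUL1 lines and at 37.8 and 0.341 FPKM in FLAG and sh-Luc. It was high in both FLAG-vector lines and low in both hairpin lines. The heavy chain genes H2-D1 and H2-Q4 were at 990.1 against 119.6 FPKM and 71.2 against 7.46 FPKM, though close relatives in this family can share reads.

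Chemokines and feedback genes of NF-κB were higher in 16 of 21 cases and lower in none, with a median of 1.82 beside 0.61 between the controls. Cxcl5, a neutrophil chemokine, was at 256 FPKM in FLAG-CACUL1 and 0.30 FPKM in sh-CACUL1, while the controls were alike at 10.3 and 9.82 FPKM. Ccl7, which attracts monocytes, was at 298, 5.14, 91.5 and 62.4 FPKM. Both genes thus lay far from the controls in each CACUL1 line. Outside the list but among the 10 highest ratios of genes with at least 1 FPKM in both lines, Tlr2, a receptor for bacterial lipoproteins, was at 81.2 FPKM in FLAG-CACUL1 and 1.3 FPKM in sh-CACUL1, with 24.4 and 11.9 FPKM in the controls. The NF-κB consensus, also chosen after the values were seen, was found in 9 of the 12 list members with a promoter, against 9.55% of all genes of the table and 12% of the genes measured. It was also in 15.2% of the genes at least 16-fold higher and in 33.3% of the lipid droplet and lipolysis genes, most of whose changed members were lower. Overlapping matches make up the capitals in the Cxcl1 promoter.
Cxcl1, chr5:90891095-90891244, plus strand: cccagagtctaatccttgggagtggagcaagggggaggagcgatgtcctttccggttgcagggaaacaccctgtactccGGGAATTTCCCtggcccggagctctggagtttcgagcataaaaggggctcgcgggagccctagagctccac

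Complement and acute phase genes were higher in 13 of 18 cases and lower in 3, with a median of 1.74. The controls differed almost as much in the same direction, with a median of 1.63 for FLAG over sh-Luc. Of the 18 genes, 12 were at least 2-fold higher in FLAG than in sh-Luc and 2 lower. Both controls lay between the CACUL1 lines for 5 of them. Ceruloplasmin (Cp), the copper-carrying ferroxidase, was at 155 FPKM in FLAG-CACUL1, 7.52 FPKM in sh-CACUL1, 99 FPKM in FLAG and 48.2 in sh-Luc. The lipopolysaccharide-binding protein Lbp was at 63.7 and 5.67 FPKM in the CACUL1 lines, with 27.2 and 1.2 FPKM in the controls. The lower members included Orm1, an acute phase glycoprotein.

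**Figure D4:**
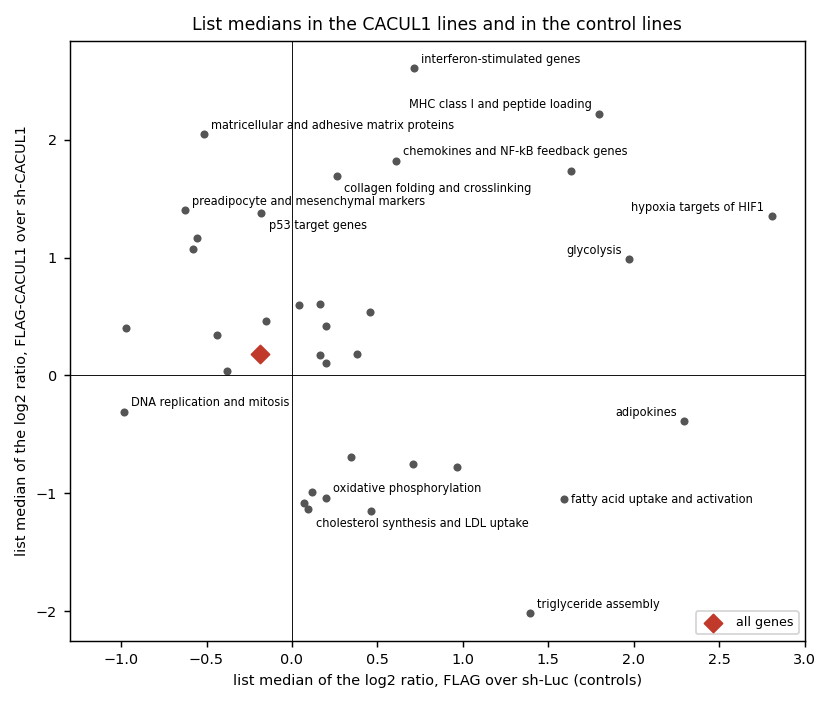
Each point is the median log2 ratio of 1 of 35 gene lists, in FLAG-CACUL1 over sh-CACUL1 (vertical axis) and in the control FLAG over sh-Luc (horizontal axis), with all genes as the red diamond. Hypoxia targets and glycolysis lie further along the control axis (2.81 and 1.97) than along the vertical axis (1.35 and 0.99), while interferon-stimulated genes lie at 2.61 vertically and 0.71 horizontally.

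Cell cycle genes differed less. DNA replication and mitosis had 6 of 40 genes (15%) lower in FLAG-CACUL1, against 6.59% of all genes, and 1 higher. The median was -0.31, and 10 were lower after scaling. The controls differed more in the same direction, with a median of -0.98 for FLAG over sh-Luc and 20 of 40 genes at least 2-fold lower in FLAG. Both controls lay between the CACUL1 lines for 0 of the 40. Tk1, thymidine kinase, was at 1.97, 11.8, 7.57 and 15.5 FPKM, and cyclin A2 (Ccna2) at 1.7 against 4.67 FPKM, both highest in sh-Luc. Among 15 G1 cyclins, CDKs and CDK inhibitors 6 (40%) were higher, against 16% of all genes, and none lower. The inhibitor Cdkn2b (p15) was at 83.8 FPKM in FLAG-CACUL1 and 7.43 FPKM in sh-CACUL1, Cdkn1a (p21) at 246 and 76.6 FPKM, and Cdkn2a at 498 and 153 FPKM. The kinases Cdk4 and Cdk6 were higher too, Cdk4 at 393 against 72.5 FPKM and Cdk6 at 2.62 against 0.636 FPKM. Ccnd1, cyclin D1, was at 81.3, 25.1, 6.46 and 90.8 FPKM.

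Target genes of p53 were higher in 12 of 20 cases and lower in 1, with a median of 1.38 beside -0.18 between the controls. The death receptor Fas was at 45.3, 5.65, 26.9 and 8.63 FPKM in FLAG-CACUL1, sh-CACUL1, FLAG and sh-Luc. The kinase Plk2 was at 34.4 against 3.51 FPKM and Gadd45a at 87.4 against 16.6 FPKM. Mdm2, the ubiquitin ligase that degrades p53, was the lower gene and was abundant in every line, 308, 906, 414 and 1430.0 FPKM, with the hairpin lines highest.

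Stress responses were mixed. Of 24 amino acid stress genes under ATF4 8 (33.3%) were higher and 4 (16.7%) lower, against 16% and 6.59% of all genes. Aldh1l2, a mitochondrial folate enzyme, was at 29.9 against 2.92 FPKM, with 118 FPKM in FLAG and 17.5 in sh-Luc. Mthfd2, another, was at 27.2 against 67.7 FPKM. Endoplasmic reticulum chaperones were 3 higher (14.3%) and 2 lower (9.52%) of 21, or 1 and 3 after scaling, close to the 16% and 6.59% of all genes as deposited. The oxidase Ero1l was at 339 and 52.3 FPKM in the CACUL1 lines but at 2673 FPKM in FLAG. NRF2 antioxidant genes were 7 higher (24.1%) and 4 lower (13.8%) of 29, or 2 and 6 after scaling. For chaperones, NRF2 genes and cytosolic ribosomal proteins the sign of the median depended on the scaling, so no direction is given. Of 82 ribosomal protein genes 1 passed 2-fold, Rpl26 at 70 against 27.4 FPKM, which shares 69.8% of its 31-base words with a processed pseudogene.

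**Figure D5:**
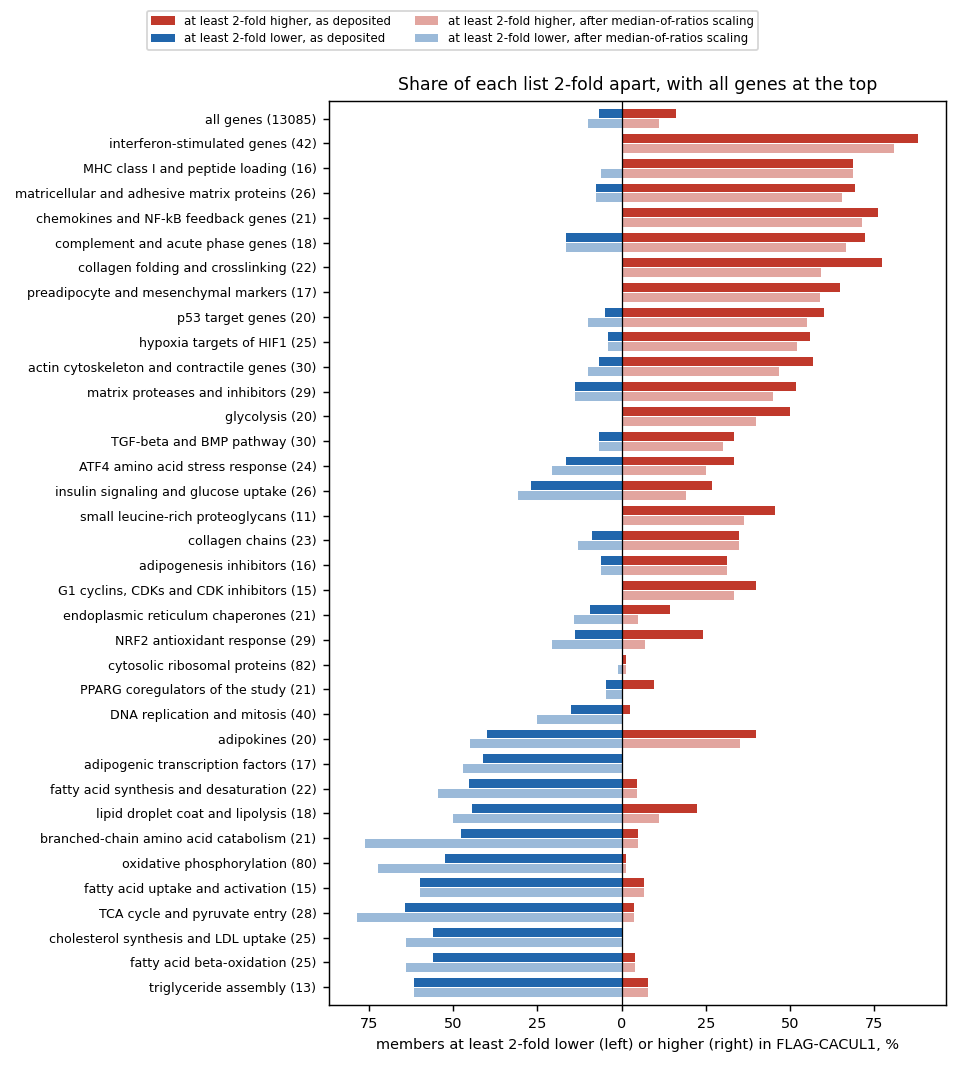
Percentage of the measured members of 35 gene lists, and of all 13085 genes in the top row, that were at least 2-fold higher (red, right) or lower (blue, left) in FLAG-CACUL1 than in sh-CACUL1, with FPKM as deposited (dark) and after median-of-ratios scaling (light). The top row holds 16% higher and 6.59% lower as deposited, and 11.1% and 10% after scaling.

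The control lines themselves differed at 2-fold for 2750 genes, 1123 higher in FLAG and 1627 higher in sh-Luc. Across genes, which are not independent replicates, the ratio between the CACUL1 lines and that between the controls had a Pearson correlation of 0.0814 and a Spearman correlation of 0.0425. Both controls lay between the CACUL1 lines for 967 of the 2096 higher genes (46.1%) and 446 of the 862 lower genes (51.7%), against 2594 of all genes (19.8%). Of the higher genes 1364 (65.1%) and of the lower genes 589 (68.3%) were within 2-fold between the controls, as were 79.0% of all genes. A wider gap between the CACUL1 lines by itself leaves more room for a control to lie inside it.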

How the data were processed

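mRNA-seq of 4 stable 3T3-L1 lines was used, with 1 sample per line on day 8. Library preparation and sequencing were done by a company, and the authors deposited FPKM values for 13110 rows named by RefSeq transcripts. The build in the submitters' processing notes is mm10, and the aligner, the program that computed FPKM, strandedness and any normalization between samples are not given in the sources used here. Deposited FPKM were used without further scaling in the main comparison.

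Rows were joined to symbols through GENCODE M21 (12919 rows) and the RefSeq table of GRCm38.p6 (144 rows). No symbol was found for 47 rows, 2 rows matched several symbols, and 50 rows of 25 symbols were summed, which left 13085 genes. No value was exactly 0, and how rows were chosen for deposit was not established here. Ratios were log2 of FPKM plus a pseudocount of 1, computed in Python 3.11.15 with numpy 2.4.6 and pandas 2.3.3, and the calculation was tested on simulated data. Fragment depth was estimated from the spacing of FPKM multiplied by length in rows of 1 transcript, where 69.4% of 297 low values in FLAG-CACUL1 and 69.2% of 308 in sh-CACUL1 lay within 0.15 of a whole step. Samples were grouped by their labels. No test was run and p-values are not given, because each line has 1 sample.

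Genes named are Cacul1 and 11 genes of the PPARγ axis, the 10 largest ratios in each direction among genes with at least 1 FPKM in both lines, the 5 highest genes in each direction under 0.1 FPKM in 1 line, up to 4 members of each list in its main direction with the furthest opposite member, and any coregulator, transcription factor, CDK or marker. Other names were chosen after their values were seen. Some genes that these rules select are not reported here. The members and lists were chosen with earlier results of these data known. There were 9 alternatives, covering the pseudocount, low-value filters, 3 scalings, the row used per symbol and the cut-off.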

Additional observations from a re-analysis of the deposited data

How the results depend on the processing

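The count of genes at least 2-fold higher in FLAG-CACUL1 (2096) became 3190 without a pseudocount, 1395 with equal FPKM sums and 914 at a 3-fold cut-off. The count at least 2-fold lower (862) became 1460 with a pseudocount of 0.1 FPKM, 1725 without one, 1377 after quantile normalization, 1309 after median-of-ratios scaling, 1391 with equal FPKM sums and 355 at a 3-fold cut-off. The Cacul1 log2 ratio (1.00) was 0.68 after quantile normalization, 0.73 after median-of-ratios scaling and 0.69 with equal FPKM sums. The median of all genes (0.19) was 0.30 without a pseudocount, -0.012 after quantile normalization, 0 after median-of-ratios scaling and -0.021 with equal FPKM sums. The median of all genes thus changed sign under 2 scalings, and Cacul1 fell below the 2-fold cut-off under all 3. Of 35 list medians 31 kept their sign under every alternative run, and those of cytosolic ribosomal proteins, endoplasmic reticulum chaperones, NRF2 genes and PPARγ coregulators did not. No paired analysis was possible because each line has 1 sample, and leaving out a replicate was not possible for the same reason. Depth limits low genes, since 1 fragment on 2 kb is worth about 0.03 FPKM, and the lines' vector and selection drug cannot be told apart from the CACUL1 manipulation.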

Other observations

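Among 14 gene families defined by symbol prefix and looked at after the main values were known, cathepsins were higher in FLAG-CACUL1 in 6 of 7 cases and lower in none, with a median log2 ratio of 2.37, or 2.07 after scaling, beside 0.01 for FLAG over sh-Luc. The lysosomal proteases Ctsl and Ctsd were at 992 and 1307 FPKM in FLAG-CACUL1, 66.8 and 251 FPKM in sh-CACUL1, 493 and 525 FPKM in FLAG and 488 and 583 FPKM in sh-Luc. Ctsk, the collagen-cleaving cathepsin K, which the list of matrix proteases also holds, was at 337, 27.7, 28.7 and 119 FPKM in the same order. A few genes of iron handling were picked after their values were seen and stand for no group. The ferritin chains Fth1 and Ftl1 were at 12208 and 6525 FPKM in FLAG-CACUL1 and 3751 and 1632 FPKM in sh-CACUL1, and the iron exporter Slc40a1 at 19.5 and 0.813 FPKM. The transferrin receptor Tfrc, which brings iron in, was lower, 8.92 against 31.6 FPKM, with 24.1 and 19.8 FPKM in the controls.

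Organelle families differed among themselves. Mitochondrial ribosomal proteins were lower in 11 of 78 cases and higher in none, with a median of -0.45 and 19 lower after scaling, while peroxins, which build peroxisomes, were lower in 6 of 16 cases and higher in none. Mrpl12 was at 49.3 against 264 FPKM and Pex16 at 13 against 69 FPKM in FLAG-CACUL1 and sh-CACUL1. Mitochondrial import subunits were within 2-fold in all 24 cases, with 6 lower after scaling. Mitochondrial carriers were higher in 4 and lower in 3 of 38 cases, and vacuolar ATPase subunits were higher in 3 and lower in 2 of 17 cases. Of all genes, 16% were higher and 6.59% lower, so these counts of carriers and ATPase subunits are not read as differences of the families. Serpins were higher in 14 of 20 cases and lower in none, and chaperonin subunits were within 2-fold in all 8 cases.

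The ratios also differed between chromosomes. Over 11079 genes with at least 1 FPKM in either CACUL1 line, with or without a mapped position, the median log2 ratio was 0.28. It was 0.77 for 527 genes on chromosome 10, of which 38.7% were at least 2-fold higher in FLAG-CACUL1, and 0.65 for 280 genes on chromosome 18, with 34.3% higher, against 18.9% of all these genes. On chromosome 6 the median was -0.13 for 537 genes and 16.8% were at least 2-fold lower, against 7.78% of all. When each chromosome was cut into 4 runs of about equally many genes in map order, the medians on chromosome 10 ran from 0.68 to 1.04, and those on chromosome 6 went from 0.24 in the first run to -0.60 in the last. Set against its own control, sh-CACUL1 over sh-Luc had a median of -0.96 on chromosome 10 against -0.40 over all, and FLAG-CACUL1 over FLAG had 0.32 against 0.15. In the same order the medians were -0.27 and 0.25 on chromosome 18, where the first lay above that over all, and -0.17 and -0.090 on chromosome 6. The DNA copy number of the lines was not tested.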
